A study of Mus musculus with 54 samples.

Results

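The 9 mouse genes followed here across the livers of the series serve lipid uptake and lipid droplets: Lpl, Cd36, Fabp4, Pparg, Fitm1, Plin2, Plin4, Cidec and Car3. They were taken by symbol from the deposited expression table and are 9 of its 18079 genes. Several were selected on their level differences of KO or Liver-RE from WT, so genotype levels of the 9 genes are given below as a description with no test. Tests of these genes are limited to their daily rhythm, which the rule that chose them did not name. Tests of a rhythm difference between genotypes may still not be free of that choice. Earlier results of these data were known when the 9 genes were chosen. Other genes of the same pathway, listed separately, are tested for both.

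Livers came from female C57BL/6J mice aged 8 to 12 weeks that ate normal chow freely under 12 h of light and 12 h of dark. WT mice were wild type. KO mice, a BMAL1 knockout per the labels, lacked the transcription factor that forms the core clock activator with CLOCK. Liver-RE mice, labelled BMAL1-stop-FL, had BMAL1 put back in the liver alone, as is known of the study, so that their other organs still lacked it. The labels used here name neither the Cre driver nor the liver cell types that regained BMAL1. Livers of 3 mice of each genotype were collected at ZT0, ZT4, ZT8, ZT12, ZT16 and ZT20, hours counted from lights on, which gave 54 RNA libraries in 18 groups of 3 and 18 libraries per genotype. P-values measure the spread between these libraries.

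Lipoprotein lipase splits the triglyceride of circulating lipoproteins, and the fatty acids set free enter cells with the help of CD36 and are carried inside them by fatty acid binding proteins. Surplus fatty acid is stored as triglyceride in lipid droplets, which bud from the endoplasmic reticulum with the help of FITM proteins and carry perilipins and CIDE proteins on their surface. PPAR-gamma, a nuclear receptor best known from fat cells, raises transcription of many of these genes. In healthy adult liver it is sparse, and it is known to rise in fatty liver together with CD36 and CIDE proteins.

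Promoter sequence was available in RefSeq (GRCm38.p6) for 6 of the 9 genes, at 9 start sites; Lpl, Fabp4 and Car3 had no entry. Each window ran from 250 bases before to 50 bases after the start and was searched on both strands for CACGTG, the E-box that BMAL1 and CLOCK bind, for AGGTCA, the core hexamer of many nuclear receptors including PPARs, and for a pair of AGGTCA hexamers separated by any 1 base, the direct repeat that PPAR and RXR bind together. The 4 windows with a match are shown because they belong to Plin2 and Pparg, the genes whose rhythm passed the test below, and to Cd36. They are printed 5′ to 3′ on the strand of the gene to 20 bases past the start, with matches in capitals. TGACCT stands for the hexamer on the other strand.
Plin2, chr4:86670040-86670309, minus strand: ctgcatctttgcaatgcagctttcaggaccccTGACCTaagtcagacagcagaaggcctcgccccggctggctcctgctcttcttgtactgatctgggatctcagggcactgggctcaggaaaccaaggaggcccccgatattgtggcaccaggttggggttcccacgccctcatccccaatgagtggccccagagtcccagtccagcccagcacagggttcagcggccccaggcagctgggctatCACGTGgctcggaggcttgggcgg
Pparg, upstream start, chr6:115360894-115361163, plus strand: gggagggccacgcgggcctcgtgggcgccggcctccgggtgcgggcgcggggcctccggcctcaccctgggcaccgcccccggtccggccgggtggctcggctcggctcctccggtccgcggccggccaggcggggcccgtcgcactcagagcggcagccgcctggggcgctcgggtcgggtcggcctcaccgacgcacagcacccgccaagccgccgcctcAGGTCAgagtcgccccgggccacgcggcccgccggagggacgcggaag
Pparg, second start, chr6:115362099-115362368, plus strand: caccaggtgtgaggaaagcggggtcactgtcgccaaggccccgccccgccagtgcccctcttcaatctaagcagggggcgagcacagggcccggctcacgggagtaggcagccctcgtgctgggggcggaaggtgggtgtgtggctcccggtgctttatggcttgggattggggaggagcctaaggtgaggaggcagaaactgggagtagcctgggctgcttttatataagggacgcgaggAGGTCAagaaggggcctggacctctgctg
Cd36, chr5:17835877-17836146, minus strand: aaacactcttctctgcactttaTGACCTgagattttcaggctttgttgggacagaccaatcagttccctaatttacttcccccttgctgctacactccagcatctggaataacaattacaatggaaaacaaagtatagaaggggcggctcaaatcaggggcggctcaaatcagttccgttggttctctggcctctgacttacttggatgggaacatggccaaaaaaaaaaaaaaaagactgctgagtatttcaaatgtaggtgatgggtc
The E-box lay across the Plin2 start, from base -4 to base 2, and Plin2 was the only one of the 6 genes with it. The E-box was present in 7.15% of the 32851 promoters in the table. The AGGTCA hexamer was found at -218 to -213 of Plin2, at -228 to -223 of Cd36, and at -28 to -23 and -9 to -4 of the 2 Pparg starts shown, against 16.26% of all promoters. None of the 9 windows held the direct repeat, as against 0.04% of all promoters. The last Pparg start and the windows of Fitm1, Cidec and Plin4 had no match. The Cd36 window lay inside the annotated gene, whose 5′ end on the minus strand is at 17888801, and that end was not searched. No binding was measured in these data, and the matches are a description of the sequence.

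Depth, estimated from the smallest steps between values, was 31.0 ± 4.00 M reads (SD, n = 54) and lay between 24.8 and 42.2 M reads. Arntl, which encodes BMAL1, stayed between 6.26 and 8.74 FPKM (fragments scaled by transcript length and sequencing depth) in KO, against 0.350 to 12.1 FPKM in WT and 0.894 to 10.7 FPKM in Liver-RE. The transcript was thus still read in KO, and its level does not check the loss of the protein. Dbp, a gene that BMAL1 drives, stayed between 0.555 and 2.56 FPKM in KO and reached 66.0 FPKM in WT and 43.8 FPKM in Liver-RE. One library stood against its label: WT ZT8 replicate 2 had 10.6 FPKM of Arntl and 1.31 FPKM of Dbp, where replicates 1 and 3 had 0.414 and 0.563 FPKM of Arntl and 61.9 and 66.0 FPKM of Dbp. Liver-RE ZT20 replicate 1 had 4.68 FPKM of Arntl, below the 8.47 and 10.6 FPKM of its group. Rhythm results are given below also without this pair of libraries where that bears on a call.

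Lpl (chromosome 8, 68880491 to 68907448, GRCm38, GENCODE vM21), the secreted lipase that starts fatty acid uptake, showed the widest gap of the 9 genes between KO and WT. In WT the lowest, median and highest values were 2.77, 6.50 and 34.1 FPKM. KO had 53.7, 80.6 and 125 FPKM, and Liver-RE had 6.47, 12.9 and 41.1 FPKM. All 18 KO libraries thus lay above all 18 WT libraries and above all 18 Liver-RE libraries. The ratio of KO to WT means was 9.97 over all times and ranged from 5.12 at ZT0 to 15.4 at ZT16. On the log2(FPKM + 1) scale KO was 3.34 ± 0.163 (SE) above WT, and Liver-RE was 0.77 ± 0.163 above WT and -2.57 ± 0.163 against KO. Liver-RE thus lay between WT and KO, closer to WT, and its 3 libraries lay above the 3 WT libraries at 4 of the 6 times. For such counts of libraries or times, here and for the genes below, no share over all genes was computed except where given.

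The highest WT value of Lpl came from a single library at ZT0, where replicates 1 to 3 had 34.1, 7.93 and 6.30 FPKM; the next WT value anywhere was 13.0 FPKM. In Liver-RE, ZT16 stood out, with 11.1, 33.8 and 41.1 FPKM, against 7.89, 9.96 and 10.6 FPKM at ZT8. In KO both the highest and the lowest library came from ZT0, with 125, 68.3 and 53.7 FPKM, while ZT4 had 73.6, 72.4 and 72.9 FPKM. Without WT ZT0 replicate 1 the KO to WT difference was 3.45 and the Liver-RE to WT difference 0.88 (log2).

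Cd36 (chromosome 5, 17781690 to 17888801), the fatty acid translocase of the cell surface, was high in both KO and Liver-RE. WT libraries had 13.5, 19.7 and 26.3 FPKM (lowest, median, highest), KO 28.9, 50.4 and 70.2 FPKM, and Liver-RE 23.7, 48.9 and 68.9 FPKM. Every KO library lay above every WT library, with ratios of means between 1.98 at ZT20 and 3.06 at ZT0. Lpl and Cd36 were 2 of the 9 genes with no overlap between KO and WT, a pattern that 0.315% of the 11759 genes tested showed. Lpl alone of the 9 had all KO above all Liver-RE libraries, which 0.408% of genes showed. These counts stem from the contrast that chose the genes.

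In Liver-RE, 16 of 18 libraries exceeded the highest WT value of Cd36, and the groups did not overlap at 5 of the 6 times. The exception was ZT16, where Liver-RE had 26.3, 35.5 and 23.7 FPKM and WT had 22.2, 24.05 and 14.3 FPKM. The difference from WT on the log2(FPKM + 1) scale was 1.32 ± 0.116 (SE) in KO and 1.21 ± 0.116 in Liver-RE, and Liver-RE differed from KO by -0.11 ± 0.116. Liver-RE thus lay within its standard error of KO for Cd36, whereas for Lpl it lay far below KO.

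Fabp4 (chromosome 3, 10204088 to 10208576), a fatty acid carrier of fat cells, macrophages and capillary endothelium, differed little between genotypes. Its lowest, median and highest values were 5.66, 8.23 and 14.0 FPKM in WT, 5.77, 10.4 and 17.3 FPKM in KO, and 7.18, 11.2 and 16.3 FPKM in Liver-RE. The genotypes overlapped over most of their range, and 3 KO and 2 Liver-RE libraries exceeded the highest WT value. The difference from WT was 0.30 ± 0.101 (log2, SE) in KO and 0.35 ± 0.101 in Liver-RE. WT itself reached 11.97 FPKM at ZT20 against 6.73 FPKM at ZT8 (means of 3).

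Pparg (chromosome 6, 115360951 to 115490399), the nuclear receptor of the group, was low in every genotype. WT libraries had 1.70, 3.16 and 5.15 FPKM, KO 1.37, 2.43 and 3.94 FPKM, and Liver-RE 2.52, 3.67 and 6.03 FPKM. The genotypes overlapped; all 3 KO libraries lay below the 3 WT libraries at 2 of the 6 times, and the 3 Liver-RE libraries lay above the 3 KO libraries at 3. The differences were -0.30 ± 0.0878 (log2, SE) for KO against WT, 0.19 for Liver-RE against WT and 0.49 for Liver-RE against KO. Lpl and Cd36 were thus higher in KO while the median of Pparg was lower. Pparg overlaps an antisense gene, Gm44079, and strand use in the authors' counting is not given in the sources used here.

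**Figure D1:**
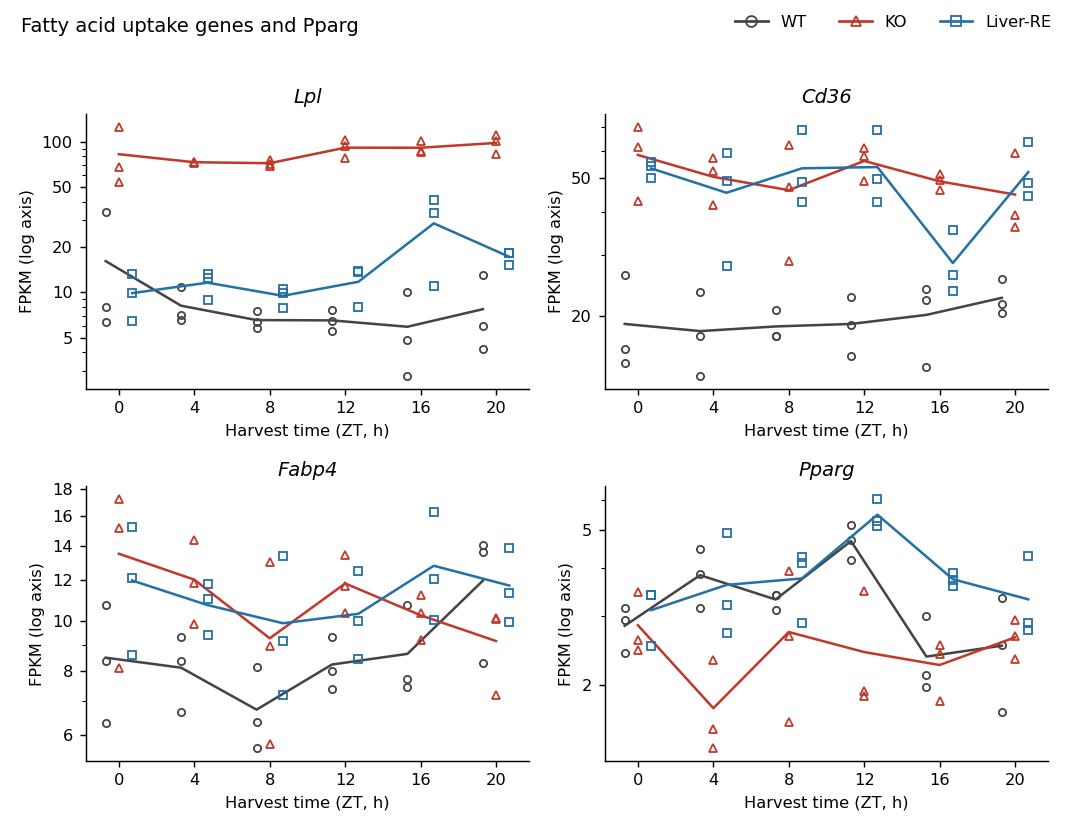
FPKM of Lpl, Cd36, Fabp4 and Pparg (log axis) against harvest time (ZT, h); each point is 1 library, lines join means of 3, and genotypes are offset sideways. KO lies above WT at all 6 times for Lpl and Cd36, while Liver-RE lies near WT for Lpl and near KO for Cd36 except at ZT16.

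Fitm1 (chromosome 14, 55575617 to 55576954), which helps triglyceride bud into droplets and is best known from muscle, was the gene with the clearest excess in Liver-RE. WT libraries had 0.921, 2.01 and 3.74 FPKM, KO 0.628, 1.37 and 3.79 FPKM, and Liver-RE 1.30, 6.63 and 11.3 FPKM. Of the 18 Liver-RE libraries, 16 exceeded the highest WT value and 16 the highest KO value. Groups of 3 did not overlap at 5 of the 6 times in either comparison. No share over all genes was computed for these counts, which are a description. The ratio of Liver-RE to WT means was 2.94, and that of KO to WT means 0.681.

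As with Cd36, ZT16 was the exception in Liver-RE, with Fitm1 at 5.01, 4.04 and 1.30 FPKM against 10.9, 9.46 and 6.09 FPKM at ZT12. The lowest Fitm1 and Cd36 values and the highest Lpl value of Liver-RE came from the same library, ZT16 replicate 3. On the log2(FPKM + 1) scale, where low genes show too small a change, Liver-RE exceeded WT by 1.19 ± 0.159 (SE) and KO by 1.58 ± 0.159; with 0.1 added in place of 1 the latter was 2.09. About 72 reads stood behind a median Fitm1 value, and an antisense gene, Gm15932, overlaps it.

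Plin2 (chromosome 4, 86648386 to 86670060), the main perilipin of liver droplets, had similar overall levels in the 3 genotypes, while its values over the day took another course in Liver-RE than in WT. Its lowest, median and highest values were 59.3, 158 and 264 FPKM in WT, 91.9, 139 and 274 FPKM in KO, and 107, 141 and 308 FPKM in Liver-RE. The genotype difference was 0.06 ± 0.138 (log2, SE) for KO and 0.16 ± 0.138 for Liver-RE, both against WT. In WT, libraries at ZT4 had 256, 155 and 264 FPKM and those at ZT16 had 59.3, 77.5 and 68.7 FPKM. All 3 at ZT16 were lower than every other WT library of Plin2. In Liver-RE the order was another one: ZT4 had 122, 122 and 119 FPKM, ZT16 had 132, 107 and 146 FPKM, and ZT20 had 308, 286 and 125 FPKM. KO ranged between 105 ± 15.4 FPKM at ZT16 and 201 ± 54.4 FPKM at ZT0 (mean ± SD, n = 3).

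Plin4 and Cidec were low and set by a few libraries. Plin4 (chromosome 17, 56100591 to 56109803), a perilipin of small nascent droplets, had 0.360, 0.670 and 5.32 FPKM in WT, 0.410, 0.742 and 2.96 FPKM in KO, and 0.245, 0.436 and 4.81 FPKM in Liver-RE. Cidec (chromosome 6, 113424634 to 113435760), which fuses droplets into larger ones, had 0.170, 0.411 and 2.53 FPKM in WT, 0.205, 0.276 and 0.420 FPKM in KO, and 0.267, 0.453 and 2.12 FPKM in Liver-RE. The genotypes overlapped for both genes. WT ZT20 replicate 1 and Liver-RE ZT20 replicate 1 gave the highest values of their genotype for both, while the other WT libraries at ZT20 had 0.743 and 2.18 FPKM of Plin4 and 0.333 and 0.423 FPKM of Cidec.

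KO lacked high Cidec values: its highest library, at 0.420 FPKM, was about level with the WT median, and 10 of 18 Liver-RE libraries exceeded it. The KO to WT ratio of Cidec means was 0.526, and that of Plin4 means 0.902. On the log2 scale the differences from WT were -0.22 ± 0.0921 (SE) for Cidec in KO and 0.00 ± 0.153 for Plin4. Median values rested on about 20 reads for Cidec and 113 for Plin4, and Plin4 overlaps Hdgfl2 on the opposite strand. The mean of Cidec lay below 0.5 FPKM, so its differences come from the fit without that filter.

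Car3 (chromosome 3, 14863512 to 14872523), a cytosolic carbonic anhydrase abundant in liver, fat and skeletal muscle, had the highest FPKM of the 9 genes. WT libraries had 156, 619 and 952 FPKM, KO 258, 500 and 839 FPKM, and Liver-RE 511, 815 and 1318 FPKM. The genotypes overlapped, with 5 Liver-RE libraries above the highest WT value and 7 above the highest KO value. Liver-RE at ZT12 had 1318, 1152 and 1301 FPKM, the highest group of the 18, and did not overlap the next, Liver-RE at ZT20. The lowest WT value came from ZT20 replicate 1, the library with the highest Cidec and Plin4; its 2 partners had 952 and 429 FPKM. Liver-RE differed from WT by 0.52 ± 0.153 and from KO by 0.73 ± 0.153 (log2, SE), and KO from WT by -0.21 ± 0.153.

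**Figure D2:**
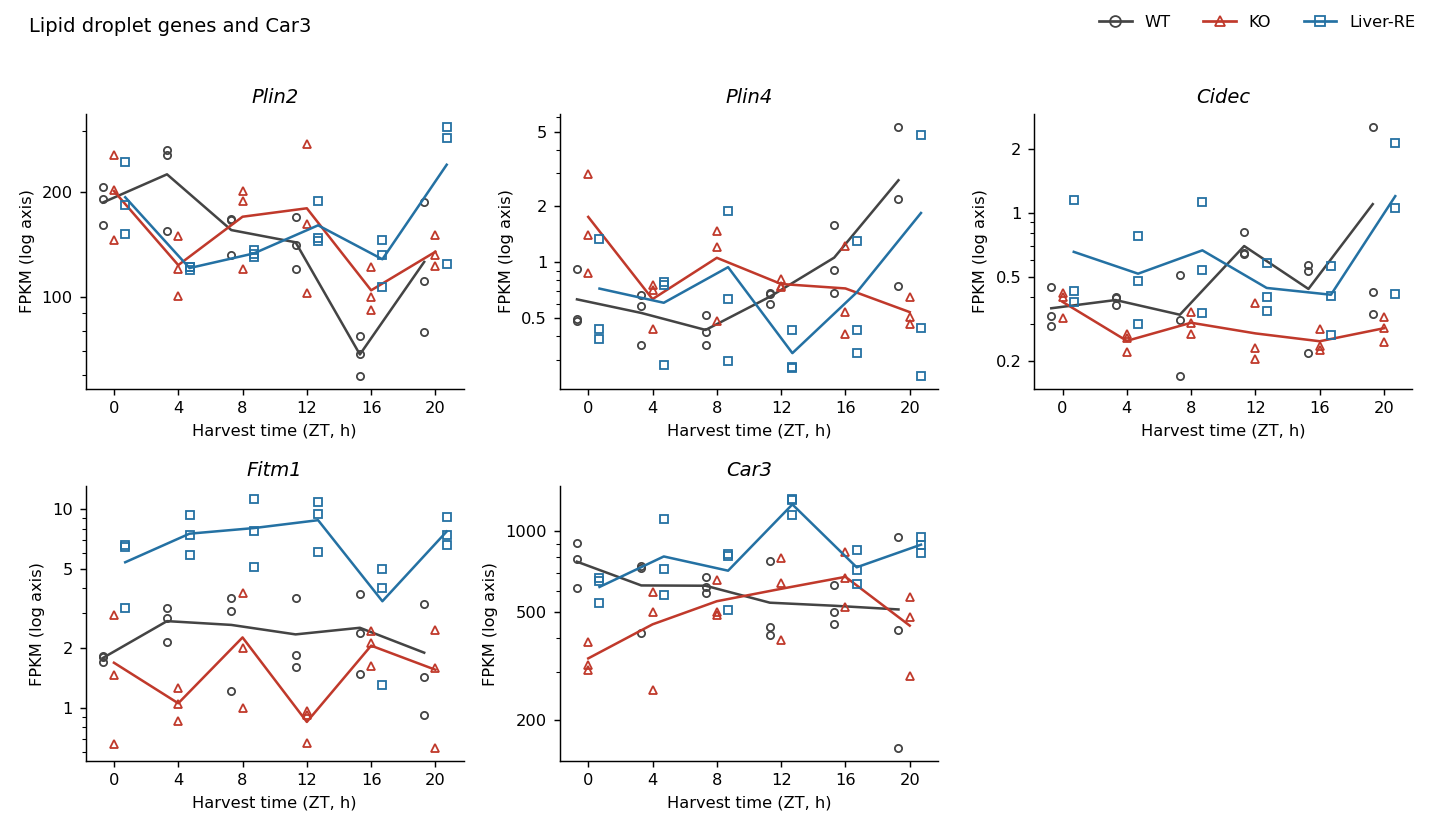
FPKM of Plin2, Plin4, Cidec, Fitm1 and Car3 (log axis) against harvest time (ZT, h); each point is 1 library, lines join means of 3, and genotypes are offset sideways. Plin2 in WT falls to 68.5 FPKM at ZT16, the Fitm1 libraries of Liver-RE lie above those of both other genotypes at 5 of 6 times, and single libraries at ZT20 carry the Plin4 and Cidec maxima.

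**Figure D3:**
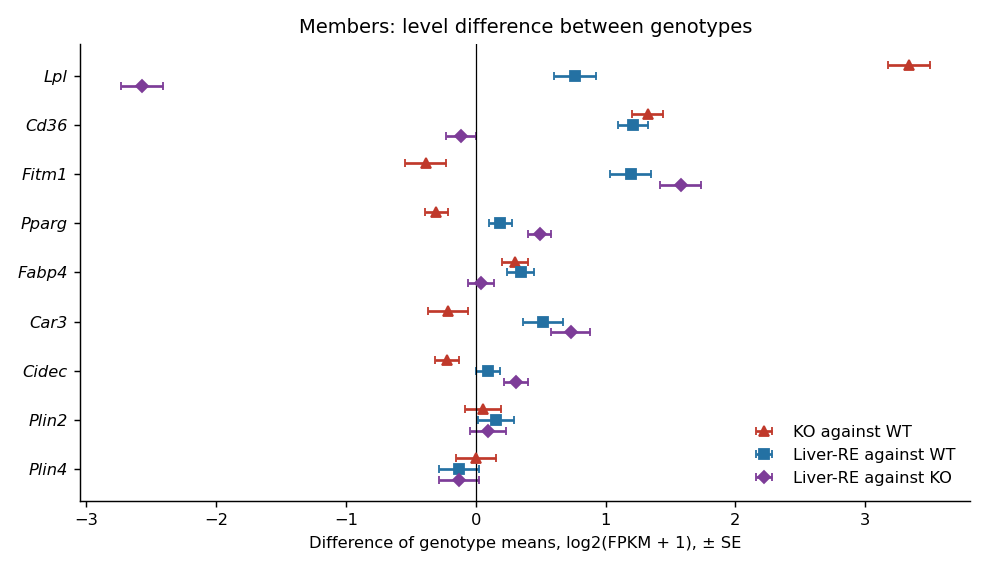
Difference of genotype means on the log2(FPKM + 1) scale with its standard error, for the 9 genes and 3 comparisons (n = 18 libraries per genotype; Cidec from the fit without the filter). The differences run from 3.34 for Lpl in KO against WT to -2.57 for Lpl in Liver-RE against KO, and Plin2 and Plin4 lie near 0 in all 3.

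Ranked by mean over the 18 groups, neighbours mostly could not be separated. For each gene, 17 gaps lie between neighbouring groups, and at most 3 of them (Fitm1 and Pparg) exceeded the larger SD of the pair; for Cidec none did. Libraries of neighbouring groups failed to overlap once for Lpl, where the lowest KO group, ZT8 at 71.9 FPKM, was followed by Liver-RE ZT16 at 28.7 FPKM. For Cd36 the break came between KO ZT20 at 44.8 FPKM and Liver-RE ZT16 at 28.5 FPKM, which itself ranked just above all 6 WT groups. For Plin2 it set WT ZT16, the lowest group, apart from KO ZT16.

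Rhythm was tested over all 11759 genes that passed the filter with a 24 h cosine in limma, adjusted by the Benjamini-Hochberg method at 0.05; 8 of the 9 genes were in the test, Cidec being below the filter. In WT, 2 of the 8 passed, Plin2 and Pparg, where 23.5% of all genes did. Plin2 had a fitted peak-to-trough fold of 2.58 with its peak at ZT4 (limma adjusted p = 0.00105), and a test between the 6 times without a cosine gave an adjusted p of 0.000748. The call held without each library in turn, at adjusted p between 0.000341 and 0.00599. The rhythm of Plin2 in WT therefore did not rest on the library that stood against its label: without that library and Liver-RE ZT20 replicate 1 the fold was 2.60.

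Pparg in WT had a fitted fold of 1.49 with its peak at ZT8.16 (limma adjusted p = 0.0358; 0.0145 between the 6 times). Its libraries had 4.72, 5.15 and 4.19 FPKM at ZT12 and 3.00, 2.11 and 1.97 FPKM at ZT16, which do not overlap. The call was not stable: 8 of the 54 libraries each ended it when left out, and without WT ZT20 replicate 1 the adjusted p was 0.117. Those 8 were ZT4 replicate 2, all 3 replicates at ZT12, ZT16 replicates 2 and 3, and ZT20 replicates 1 and 3, all WT. Plin4 in WT missed the threshold with a fold of 1.94 and a peak at ZT18.99 (limma adjusted p = 0.0510). It passed at 0.0161 without the pair of libraries with unusual clock genes, and its adjusted p was 0.244 without WT ZT20 replicate 1.

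In KO, 0 of the 8 genes and 0% of all genes passed the rhythm test in limma. Before adjustment 1105 genes had a p under 0.05. Car3 was the only one of the 8 among them, with a limma adjusted p of 0.460. In Liver-RE also 0 of the 8 passed, where 3.82% of all genes did. Before adjustment Lpl (0.00548) and Pparg (0.0191) had a p under 0.05 in limma, as had 2479 of all 11759 genes. Lpl came nearest there, with a fold of 2.16 and a peak at ZT17.13 (limma adjusted p = 0.0822). It passed at 0.0352 at the lowest when 1 library was left out, either WT ZT0 replicate 1 or Liver-RE ZT16 replicate 1.

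The difference in rhythm between genotypes was tested directly. Plin2 was the only one of the 8 genes to differ between Liver-RE and WT (limma adjusted p = 0.0217; 0.0372 between the 6 times), where 3.51% of all genes did. In the fitted curves WT peaked at ZT4 with a fold of 2.58, and Liver-RE at ZT20.65 with a fold of 1.52, the latter not past the threshold by itself (adjusted p = 0.331). The means behind it were 225 ± 61.1 FPKM in WT and 121 ± 1.52 FPKM in Liver-RE at ZT4, and 68.5 ± 9.08 FPKM in WT and 128 ± 19.9 FPKM in Liver-RE at ZT16 (SD, n = 3). WT was thus higher at ZT4 and Liver-RE at ZT16, with no overlap in either pair of groups. KO was likewise below WT at ZT4 and above it at ZT16, also with no overlap, at 124 ± 24.8 and 105 ± 15.4 FPKM. No share over all genes was computed for these overlaps. The rhythm test of Plin2 did not pass between KO and WT (limma adjusted p = 0.177) or between Liver-RE and KO (0.521). For the limma test between Liver-RE and WT, leaving out each library in turn gave adjusted p between 0.00816 and 0.0470.

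Lpl missed the same test (limma adjusted p = 0.0687). The fits peaked at ZT17.13 in Liver-RE and at ZT1.22 in WT, but neither rhythm passed by itself (limma adjusted p = 0.0822 and 0.154). Without WT ZT0 replicate 1 the fitted WT fold went from 1.73 to 1.31. The Lpl difference between Liver-RE and WT passed when WT ZT16 replicate 1, Liver-RE ZT12 replicate 1 or Liver-RE ZT16 replicate 1 was left out. Its adjusted p was then 0.0356 at the lowest. Between KO and WT, 0 of the 8 rhythms differed, where 7.78% of all genes did. At an unadjusted p under 0.05 in limma, as for 2892 of all 11759 genes, there were Pparg (0.0177), Car3 (0.0178), Plin2 (0.0376) and Plin4 (0.0452). Their adjusted p-values were 0.11999, 0.1202, 0.177 and 0.195. Pparg passed without KO ZT8 replicate 1 (0.0380) and Car3 without WT ZT20 replicate 1 (0.0388). Between Liver-RE and KO, 0 of the 8 passed, where 0.238% of all genes did. At an unadjusted p under 0.05 in limma there were also 0 of the 8, against 1460 of all 11759 genes.

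A list of 67 other genes of the pathway was set beside the 9; 66 were in the table and 63 passed the filter. In KO against WT, 6 were higher and 12 lower (limma adjusted p under 0.05), where 16.5% of all genes were higher and 13.5% lower. The median of the list was -0.03 and that of all genes 0.02 (log2). In Liver-RE against WT, 1 was higher and 2 lower, where 1.18% and 5.88% of all genes were. In Liver-RE against KO, 12 were higher and 10 lower, where 7.42% and 26.7% of all genes were. Quantile scaling of the libraries moved these counts to 7 and 14, 2 and 1, and 15 and 4. Over all genes it moved Liver-RE against KO from 873 higher and 3134 lower to 1457 and 1643, and Liver-RE against WT from 139 and 691 to 247 and 266.

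Among the 13 partners of LPL and plasma lipases, Lipc, the hepatic lipase, rose in KO from a mean of 79.3 to 127 FPKM (log2 difference 0.68 ± 0.0901 SE, limma adjusted p = 4.13e-08). In Liver-RE it was back at 72.0 FPKM, -0.83 against KO. Sel1l, which is needed for LPL to leave the endoplasmic reticulum, rose by 0.25 in KO. Lipg, the endothelial lipase, fell by 0.83 in KO, from 4.38 to 1.90 FPKM, and was 1.07 higher in Liver-RE than in KO. Angptl4, a secreted inhibitor of LPL, was 0.95 ± 0.353 higher in Liver-RE than in KO (adjusted p = 0.0321), a call that 8 of the 54 libraries each ended when left out (0.0633 at the highest, without Liver-RE ZT20 replicate 1). The other 10 genes did not pass in KO against WT, and none of the 13 passed in Liver-RE against WT. Lipc thus lay in KO above both other genotypes, as the values of Lpl did, and Lipg below both.

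Of 13 genes of fatty acid uptake and activation, Fabp5, an epidermal-type fatty acid carrier, fell furthest, by 1.97 ± 0.342 (log2, SE) from 96.2 to 22.7 FPKM in KO (limma adjusted p = 9.94e-06). It was 1.36 higher in Liver-RE than in KO. Fabp1, the liver carrier, fell by 0.67 in KO, from 6061 to 4115 FPKM, and was 0.64 higher in Liver-RE than in KO. Cav1, the coat protein of caveolae, fell by 0.22 in KO and by 0.25 in Liver-RE, both against WT. Acsl1, which activates fatty acids to acyl-CoA, rose by 0.29 in KO. Fabp5 has processed copies in the mouse genome, and how the authors' counting treated such reads is not given in the sources used here.

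Of 7 lipoprotein receptor genes, Scarb1, the HDL receptor, rose by 0.44 in KO and was -0.38 in Liver-RE against KO. Lsr, a receptor for triglyceride-rich particles, fell by 0.60 in KO and by 0.27 in Liver-RE, both against WT; the latter (adjusted p = 0.0398) was lost with quantile scaling at an adjusted p of 0.160 and without any of 13 libraries (0.0800 at the highest, without Liver-RE ZT8 replicate 1). Vldlr rose in KO by 0.41 ± 0.146 (adjusted p = 0.0286) and in Liver-RE by 0.54 ± 0.146 (adjusted p = 0.0175), from 1.41 to 2.33 and 2.52 FPKM. The call in KO was lost without KO ZT8 replicate 1 (0.0533) or KO ZT20 replicate 1 (0.0571). Vldlr was the listed gene that was higher than WT in Liver-RE, and like Cd36 it had similar means in KO and Liver-RE.

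Of the 11 tested genes of droplet assembly and coat, 1 rose and 2 fell in KO. Of all genes 16.5% rose and 13.5% fell. Dgat2, which makes the triglyceride that fills droplets, fell by 0.50 ± 0.0734 (log2, SE), from 215 to 150 FPKM (limma adjusted p = 3.76e-07), and was 0.37 higher in Liver-RE than in KO. Hsd17b11, a droplet-bound dehydrogenase, fell by 0.34, and Bscl2, the seipin that shapes nascent droplets, rose by 0.17. Among 8 genes of droplet lipolysis, Pnpla3 fell by 1.499 ± 0.268, from 4.32 to 0.621 FPKM, and was 1.57 higher in Liver-RE than in KO. Mgll, the monoglyceride lipase, fell by 0.33 in KO (adjusted p = 0.0489). Lipe, the hormone-sensitive lipase, was 0.22 higher and Lipa, the lysosomal lipase, -0.18 in Liver-RE against KO; the call for Lipa was lost with quantile scaling (adjusted p = 0.159). Several of these calls lay close to the threshold. When 1 library was left out, 33 of the 54 libraries each ended the call for Mgll (adjusted p up to 0.0964, without KO ZT0 replicate 1), 25 that for Lipe (up to 0.0914, without Liver-RE ZT8 replicate 3) and 6 that for Hsd17b11 (up to 0.0601, without WT ZT20 replicate 1). Liver-RE ZT8 replicate 1 and Liver-RE ZT16 replicate 3 each ended that for Lipa (both 0.0589).

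Of 11 partners and regulators of PPAR-gamma, 3 fell in KO and none rose, where 13.5% of all genes fell and 16.5% rose. Cebpa, which drives fat cell genes together with PPAR-gamma, fell by 0.44 ± 0.0659, from 79.5 to 58.0 FPKM (limma adjusted p = 5.81e-07), Cebpb fell by 0.38 and Cebpd by 0.25. In Liver-RE against KO, Cebpa was 0.27 and Ppargc1b, a coactivator, 0.25 higher, while Rxrb, a dimer partner, was -0.18, a call lost with quantile scaling (adjusted p = 0.0822). Leaving out WT ZT20 replicate 1 ended the calls for Cebpb (adjusted p = 0.0625) and Cebpd (0.0940); in all 17 libraries each ended that for Cebpd, and 11 that for Ppargc1b (up to 0.0796, without Liver-RE ZT20 replicate 1). None of the 11 passed between Liver-RE and WT.

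**Figure D4:**
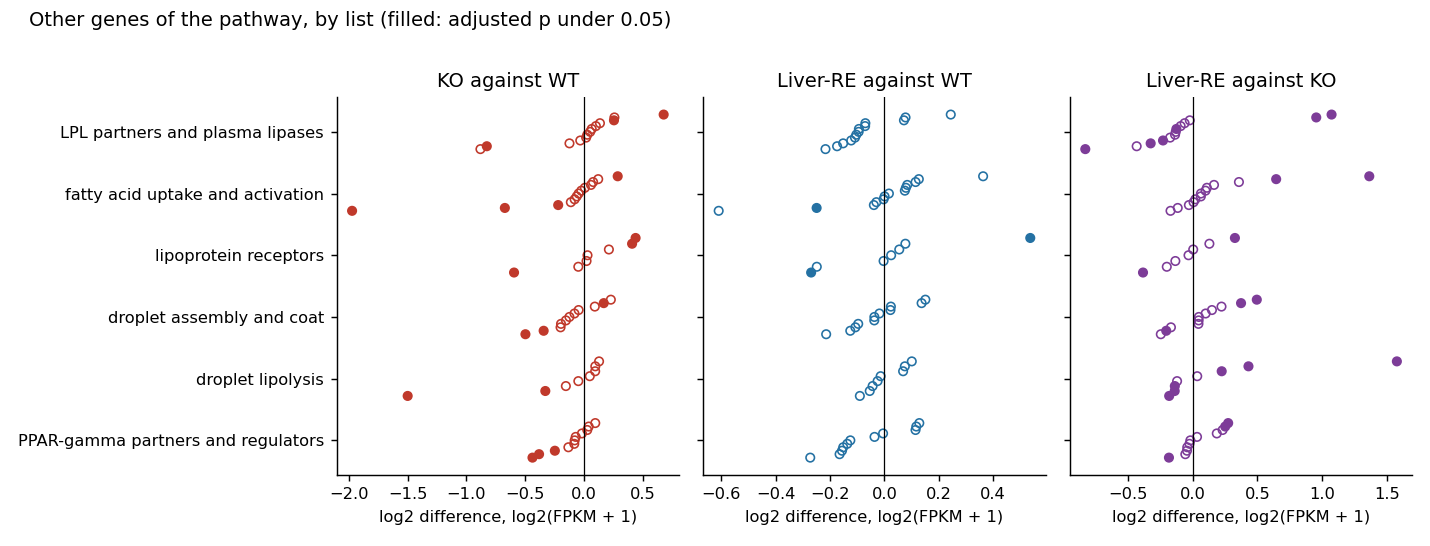
Log2 differences on the log2(FPKM + 1) scale for the 63 other pathway genes tested, by list; each point is 1 gene, filled where its limma adjusted p was under 0.05, and the axes differ between panels. In KO against WT the lowest point is Fabp5 at -1.97 and the highest Lipc at 0.68, and in Liver-RE against WT 3 points are filled.

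Rhythms of the 63 listed genes were called for 17 in WT, where 23.5% of all genes were, for 0 in KO (9 at an unadjusted p under 0.05, as were 1105 of all 11759) and for 6 in Liver-RE, where 3.82% of all genes were. By list, the WT counts were 3 of 13 partners of LPL, 3 of 13 uptake genes, 2 of 7 receptors, 5 of 11 droplet assembly and coat genes, 0 of 8 droplet lipolysis genes (0 also at an unadjusted p under 0.05 in limma) and 4 of 11 partners of PPAR-gamma. Of all 11759 genes 4424 had an unadjusted p under 0.05 in WT. The 5 droplet genes were Hsd17b13, Dgat2, Cideb, Plin5 and Bscl2, named after their values were seen. Cideb peaked at ZT4.44, near the Plin2 peak, with a fold of 1.74 (limma adjusted p = 0.00101), and Plin5 at ZT18.83, near the fitted peak of Plin4, with a fold of 2.66 (adjusted p = 0.0279). The Liver-RE rhythm differed from that of WT for some listed genes. Dgat2 peaked at ZT12.25 in WT and at ZT5.28 in Liver-RE (adjusted p of the difference 0.000674), Cebpa at ZT10.11 and ZT5.05 (0.0153), and Apoa5, an activator of LPL, at ZT15.57 and ZT10.2 (0.01003).

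Markers of other cell types were read beside these values, since in bulk liver fewer cells of a type and less RNA per cell cannot be told apart. Of 8 adipocyte markers 4 were in the table and none passed the filter. Their summed level was 0.231 to 1.02 FPKM in WT, 0.0204 to 0.220 FPKM in KO and 0.265 to 2.04 FPKM in Liver-RE; Adipoq, the defining marker, was listed at 0 in 13, 12 and 14 of the 18 libraries, and most of the sum was Adrb3 in WT and Liver-RE, at medians of 0.367 and 0.451 FPKM against 0.0429 FPKM in KO. Liver-RE ZT16 replicate 3, the library with the highest Lpl of its genotype, had the sum of 2.04 FPKM. WT ZT0 replicate 1, likewise the highest for Lpl in WT, had 1.02 FPKM. The KO libraries, all higher in Lpl, had sums of at most 0.220 FPKM. In Liver-RE Adrb3 alone reached 2.00 FPKM, and Adipoq at most 0.0297 FPKM. Skeletal muscle markers, 5 of 8 in the table, summed to at most 0.783 FPKM in any library.

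Macrophage and Kupffer cell markers, a cell type that also expresses Lpl, Cd36, Fabp4, Pparg and Plin2, moved with the genotypes. In KO 10 of 12 were lower than in WT, where 13.5% of all genes were, and in Liver-RE 5 of 12, where 5.88% were, with none higher. Between Liver-RE and KO 0 of 12 passed, where 7.42% of all genes were higher and 26.7% lower. The summed level was 309 to 440 FPKM in WT, 190 to 410 FPKM in KO and 188 to 454 FPKM in Liver-RE. The means of Lpl and Cd36 were higher in KO and Liver-RE than in WT, and Lpl was -2.57 (log2) in Liver-RE against KO. Of 10 liver endothelial markers 1 was higher and 1 lower in KO, where 16.5% of all genes were higher and 13.5% lower. Their summed level ranged from 138 to 316 FPKM over all libraries. Hepatocyte markers summed to 39859 to 58545 FPKM in WT, 22062 to 40577 FPKM in KO and 31837 to 66019 FPKM in Liver-RE. Most of that sum was Alb, with means of 36852, 16700 and 33046 FPKM; of the other 7 markers Hnf4a was lower in KO than in WT (-0.27, log2) and Fah higher (0.26). With quantile scaling the Alb difference between KO and WT was -0.13 and did not pass (limma adjusted p = 0.212). That scaling gives equal ranks equal values, so it cannot show a fall of a gene that stays at or near the top rank. Without it the difference was -1.17 (log2). The part of any of these cell types in the values above was not tested.

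Within groups, Cidec, Plin4 and Plin2 varied together. Deviations of log2 values from the mean of their group, over 54 libraries, correlated at r = 0.745 for Cidec and Plin4, 0.608 for Cidec and Plin2, and 0.534 for Lpl and Fabp4. Car3 went the other way from Cidec (r = -0.487) and Plin4 (r = -0.434) and along with Pparg (r = 0.428), and Pparg went along with Cd36 (r = 0.424). These points share their library, its scaling and its depth, and the correlations are a description. The largest, Cidec with Plin4, includes WT ZT20 replicate 1 and Liver-RE ZT20 replicate 1, which are the maxima of both genes.

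**Figure D5:**
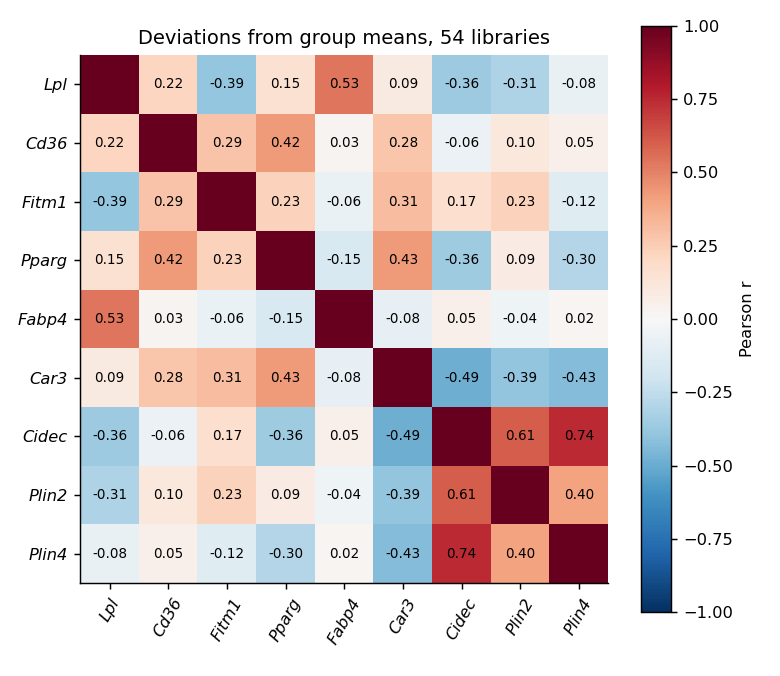
Pearson r between the 9 genes of deviations of log2(FPKM + 1) from the mean of each of the 18 groups, over 54 libraries; red is positive and blue negative, and the diagonal is the gene with itself. Cidec, Plin2 and Plin4 are positive with each other and negative with Car3.

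Over the 18 group means, 10072 genes were compared with each of the 9 for the most similar pattern (Pearson r, as a description; the groups share their genotype). Lpl was most like Cyp2c55 (r = 0.961), with means of 2.05, 35.1 and 4.29 FPKM in WT, KO and Liver-RE, followed by Metap1d (0.955) and Adam11 (0.942). Cd36 was most like Mmp9 (r = 0.937), with means of 0.157, 1.86 and 1.76 FPKM, so that KO and Liver-RE were again close, then Ociad2 (0.874) and Aldh1a1 (0.866). Fitm1 was most like Tpm2 (0.845) and Acaa1b (0.829), an enzyme of peroxisomal fatty acid oxidation. Genes similar to Car3 included Reep6 (0.762) and Atp9a (0.743). Pparg came with Rad51b (0.841), Rnf24 (0.836) and Pla2g6 (0.829), and Cidec with Gpat3 (0.819), an enzyme of glycerolipid synthesis, at means of 3.24, 0.949 and 2.99 FPKM. Plin4 was closest to Mlxip (0.775), Snhg3 (0.774) and Plin5 (0.766). Plin2 was closest to Hist1h2bj (0.808), and Fabp4 to Mcam (0.773), Col4a1 (0.722) and Col4a2 (0.708), genes of vessel walls and basement membrane.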

How the data were processed

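RNA from 54 mouse livers was sequenced as stranded total RNA libraries depleted of ribosomal RNA, per the labels' protocols. CASAVA 1.8.2 and the build mm10 are listed, with no role, per the submitters' processing notes. How reads were aligned and counted, and whether strand was used, is not given in the sources used here. A single table was deposited, with no unit named, and its values were read as FPKM computed by the authors: at low values the most frequent value held 8.21% of the values after multiplication by transcript length and 4.16% without. Sums of FPKM lay between 274353 and 419402 per library. The values are not counts, so no count model was used.

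The scale was log2(FPKM + 1), and 11759 of 18079 genes had the required mean of at least 0.5 FPKM. One limma 3.58.1 model (R 4.3.3, with an intensity trend) described each genotype by its mean and by a cosine and sine of 24 h. F tests gave rhythm and rhythm differences, with Benjamini-Hochberg adjustment over all genes and a threshold of 0.05. The functions were tested on simulated data. Descriptions and figures were made in Python 3.11.15 (matplotlib 3.10.9, numpy 2.4.6, pandas 2.3.3). Read numbers behind a gene are estimates from the 1-read step and the longest transcript.

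The 9 genes, the pathway lists and the marker lists were chosen with earlier results of these data known. Named were the 9 genes, per pathway list and contrast up to 4 called genes with the largest change (some left out for length), and per gene the 3 most similar genes with a mean of at least 1 FPKM, predicted genes and pseudogenes apart; some results for such genes are not reported here. Marker lists covered adipocytes, skeletal muscle, macrophages, endothelium, stellate cells, pancreas, hepatocytes and proliferating cells. Of stellate markers 3 of 8 were lower in KO than in WT, where 13.5% of all genes were. In Liver-RE against WT 2 of 8 were lower, where 5.88% of all genes were. Of 7 pancreas markers only 1, Cela1, passed the filter, and it rose by 1.18 (log2) in KO against WT. The rest of that list did not show such a level: Cpa1, Prss2, Pnlip, Cel and Ctrb1 had a KO median of 0 FPKM, and Amy2b 0.0831 FPKM. For proliferation, 0 of 3 markers passed. Of 8 hepatocyte markers 1 was higher and 2 lower in KO, where 16.5% of all genes were higher and 13.5% lower.

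The settings varied were quantile normalization, no filter, a replicate block, a pseudocount of 0.1, group means for the spread, robust empirical Bayes, the genotypes concerned alone, a test between 6 times, each library left out, and, chosen after seeing the data, 2 pairs of libraries left out and the 20 highest genes left out.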

Additional observations from a re-analysis of the deposited data

Results flagged for a closer look

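The rhythm of Plin2 differed between Liver-RE and WT by a direct test (limma adjusted p = 0.0217). It was the only one of the 8 genes tested with such a difference between any pair of genotypes. WT fell from 225 ± 61.1 FPKM at ZT4 to 68.5 ± 9.08 FPKM at ZT16, while Liver-RE had 121 ± 1.52 and 128 ± 19.9 FPKM at these times (SD, n = 3). KO had 124 ± 24.8 and 105 ± 15.4 FPKM, and like Liver-RE did not overlap WT at either time. No share over all genes was computed for these overlaps, and the rhythm test of Plin2 between KO and WT did not pass (limma adjusted p = 0.177). At ZT20 the Liver-RE libraries were split, with 308, 286 and 125 FPKM, and the first of them is the library whose Arntl lay below its group. Without it and WT ZT8 replicate 2 the limma adjusted p between Liver-RE and WT was 0.0346.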

How the results depend on the processing

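Of 774 alternative values of the counts reported, 735 stayed within 1.5 times, and of 7153 values for single genes 6974 kept their side of the threshold or stayed within the spread between replicates; no called difference changed sign. Differences near 0 did: Plin2 in KO against WT lay between -0.01 and 0.11, Plin4 between -0.06 and 0.09, and Fabp4 in Liver-RE against KO between -0.01 and 0.08 (log2) with each library left out, and Plin4 was also just below 0 with quantile normalization and the 20 highest genes left out. Listed genes higher in Liver-RE than in WT were 2 in place of 1 with no filter, with quantile normalization (Got2 added) or with the 20 highest genes left out. Those lower in Liver-RE than in WT were 1 in place of 2 with quantile normalization or the 20 highest genes left out, and 1 to 4 with each library left out. Those lower in Liver-RE than in KO were 4 with quantile normalization and 5 with the 20 highest genes left out, in place of 10. Rhythms in WT among the 9 genes were 1 in place of 2, Pparg being lost, with no filter (adjusted p = 0.0533), with the 20 highest genes left out (0.115) or without WT ZT20 replicate 1 and Liver-RE ZT20 replicate 1 (0.119), and 1 to 3 with each library left out. That pair of libraries left out gave 1 difference between KO and WT, Car3 (0.0392). With each library left out, rhythms in Liver-RE were 0 to 1, differences between KO and WT 0 to 1, and those between Liver-RE and WT 1 to 2. The cause of these shifts was not tested.

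Deviations of same-numbered libraries correlated at a mean r of 0.04 (lowest -0.40), against -0.02 for other numbers, and 29 of 54 libraries were closest to their own number, a hint from the data and not the design; the numbers were not taken to pair the libraries. The replicate block changed no count by over 1.5 times; it brought Plin4 in WT to an adjusted p of 0.0402 and Mgll in KO against WT to 0.0522. Low depth limits Cidec, at about 20 reads per median value, and Fitm1, at 72.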
